A study of Mus musculus with 3 samples.

Results

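The 10 genes described here are the cell-surface and regulator genes by which blood stem cells are usually recognised: Cd34, Ly6a, Procr, Adgrl4, P2ry14, Angpt1, Hlf, Tal1, Erg and Fli1. They were chosen by name from the 33696 genes counted in mouse bone marrow by droplet single-cell RNA sequencing. Earlier results of these data were known when the choice was made. The marrow came from mice that were homozygous for a knockout of Fabp4, heterozygous for it, or wild type. Fabp4 encodes a fatty acid-binding protein, and the series title concerns its role in leukaemia stem cells as opposed to blood stem cells. Each genotype is 1 library that pooled marrow cells of 2 mice, and no file assigns a cell to a mouse. Age, sex, strain and the way Fabp4 was disrupted are not given in the sources used here, nor is it stated whether the marrow carried leukaemia. The question put to the data was whether the cells with Cd34 RNA also carried the other stem genes.

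Blood stem cells are rare marrow cells that renew themselves and give rise to every blood lineage. In the mouse they are sorted by surface proteins, and the most primitive ones carry Ly6a protein (Sca-1) and Procr protein (EPCR) but little Cd34, whereas Cd34 is carried by many of the progenitors that descend from them. A small set of transcription factors, among them Tal1, Erg, Fli1, Gata2, Runx1, Lmo2 and Lyl1, binds together near the genes that keep this state, and Hlf marks its most primitive part.

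After removal of barcodes with a mitochondrial share of 10% or more, 4318 cells were kept from the homozygous library, 7957 from the heterozygous library and 5604 from the wild-type library. This filter took 46.8% of the homozygous barcodes, 25.8% of the heterozygous ones and 40.6% of the wild-type ones. The kept cells held 46093025 homozygous, 72880881 heterozygous and 67141826 wild-type unique molecular identifiers (UMIs, each the tag of 1 captured RNA molecule), with a median between 7658 and 10058 UMIs per cell. Fabp4 itself had 5 UMIs in the homozygous library (0.108 counts per 1000000 UMIs, CPM), 38 in the heterozygous library (0.521 CPM) and 50 in the wild-type library (0.745 CPM). Between 21 and 26 barcode sequences were shared by any pair of libraries. RNA that differs between the sexes was unevenly spread: cells with Y-linked RNA and no Xist made up 3.29% of the homozygous, 56.6% of the heterozygous and 1.32% of the wild-type cells. With 1 library per genotype there is no replicate check, and no p-value was computed. All intervals below are 95% intervals that cover counting error only, so a difference outside them is a difference between these libraries, not between genotypes. The wild-type library is shared by the homozygous and the heterozygous comparison, which are therefore not independent.

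Of the 10 genes, Cd34, Procr, Adgrl4, P2ry14 and Angpt1 were at least 2-fold lower in the homozygous library than in the wild-type library, and none was 2-fold higher. That was 5 of the 9 members that had at least 60 UMIs over the 3 libraries, where 3.26% of all 15560 genes with that many UMIs were at least 2-fold lower and 3.32% at least 2-fold higher. In the heterozygous library 4 of the 9 were at least 2-fold lower (Cd34, Procr, P2ry14 and Angpt1) and none was higher, beside 5.37% and 4.82% of all genes. Cells with Xist and no Y-linked RNA made up 14.4% of the heterozygous cells (1148) and 91.9% of the wild-type cells (5151). When only these cells were used, P2ry14 alone of those 4 stayed at least 2-fold lower in the heterozygous library (log2 ratio −1.77, with Procr at −0.72, Cd34 at −0.42 and Angpt1 at −0.06). Ly6a was then 2-fold higher (1.09, 24.8 against 11.6 CPM in wild type). Over all kept cells Ly6a, Hlf, Erg and Fli1 stayed within 2-fold in both comparisons, and Tal1 was too scarce to be counted among the 9. The median log2 ratio over all genes was 0.06 for homozygous over wild type and −0.14 for heterozygous over wild type.

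**Figure D1:**
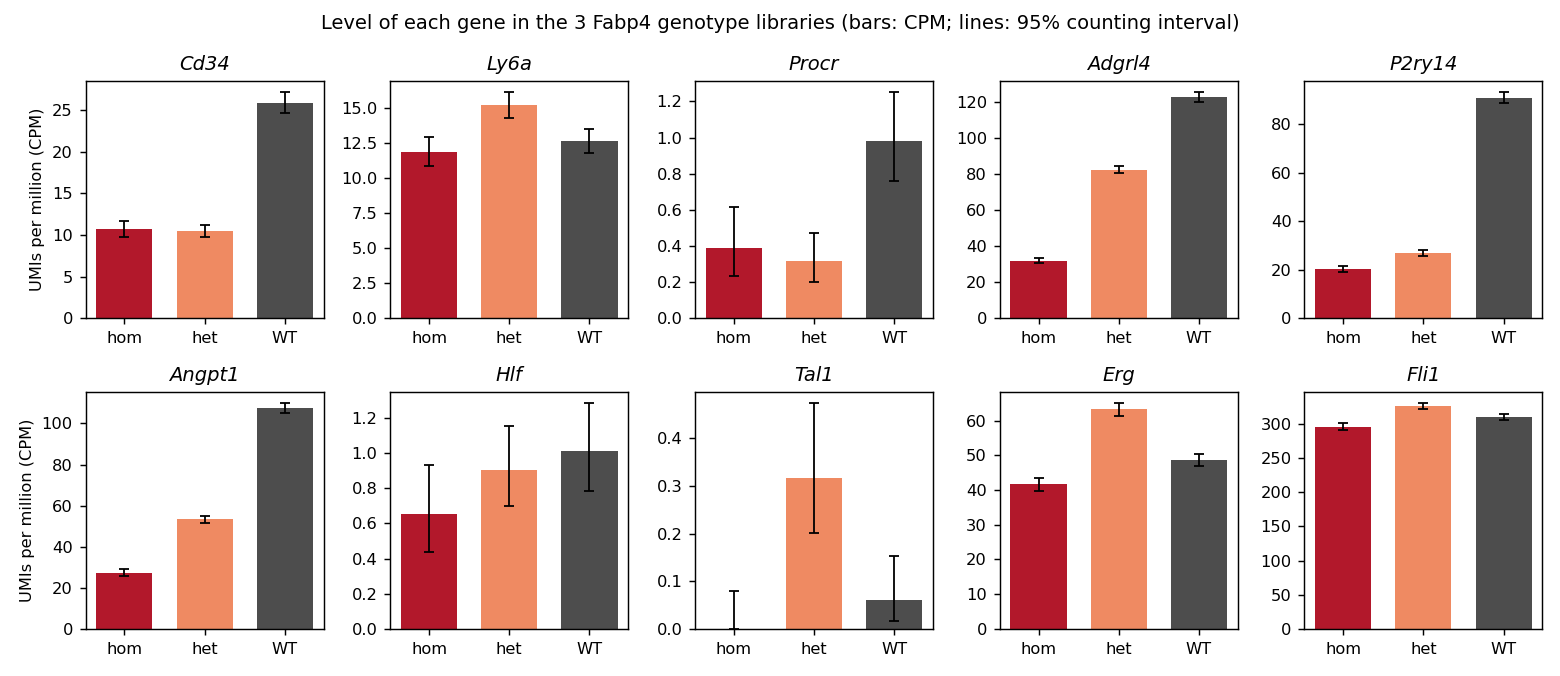
Bars give the level of each of the 10 genes in CPM (linear axis from 0, its own scale for each gene) in the homozygous (hom), heterozygous (het) and wild-type (WT) libraries, with 95% counting intervals as lines. Cd34, Procr, P2ry14, Angpt1 and Adgrl4 are highest in the wild-type library, while Fli1 lies between 296 and 327 CPM in all 3.

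Cd34 is a sialomucin of progenitor and endothelial surfaces. Its gene covers chr1:194938819-194961279 on the plus strand (GRCm38, GENCODE M21). It had 492 UMIs in the homozygous library, a level of 10.7 CPM (interval 9.75 to 11.7). The heterozygous library gave 762 UMIs and 10.5 CPM (9.73 to 11.2), and the wild-type library 1737 UMIs and 25.9 CPM (24.7 to 27.1). The homozygous and heterozygous levels overlapped, and both lay 2.4-fold or more below wild type (log2 ratios −1.28, interval −1.42 to −1.13, and −1.31, interval −1.43 to −1.18). A Cd34 UMI was seen in 4.91% of homozygous cells (4.28 to 5.60), 5.71% of heterozygous cells (5.21 to 6.24) and 16.2% of wild-type cells (15.3 to 17.2), by the exact Clopper-Pearson method. In mature neutrophil-like cells, which should lack Cd34 RNA, it was seen in 0 of 141 homozygous cells (a count of 0 that allows up to 2.13%), 1.08% of 1390 heterozygous cells and 1.06% of 94 wild-type cells. Those neutrophil-like cells had median depths of 5672, 5282 and 5441.5 UMIs, against 9036.5, 7658 and 10058 over all kept cells of the same libraries. When every cell was thinned to 1000 UMIs, the shares with Cd34 were 0.759% in the homozygous, 0.792% in the heterozygous and 2.13% in the wild-type library. The barcodes removed for their mitochondrial share held 3.47 CPM of Cd34 in the homozygous, 6.13 CPM in the heterozygous and 6.98 CPM in the wild-type library. The thinning left out 231 homozygous, 258 heterozygous and 75 wild-type cells that were shallower.

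The promoters of 3 surface genes that were low together in the homozygous library, Cd34, Adgrl4 and P2ry14, are printed from 250 bases before to 50 bases after the RefSeq start site, 5′ to 3′ on the gene's strand. They come from the RefSeq promoter table for GRCm38.p6, at chr1:194938571-194938870 (plus strand), chr3:151437632-151437931 (plus strand) and chr3:59153443-59153742 (minus strand). Capitals mark the ETS core GGAA, to which factors such as Erg and Fli1 bind, the GATA motif AGATAA and the E-box CAGCTG, each searched on both strands.
Cd34: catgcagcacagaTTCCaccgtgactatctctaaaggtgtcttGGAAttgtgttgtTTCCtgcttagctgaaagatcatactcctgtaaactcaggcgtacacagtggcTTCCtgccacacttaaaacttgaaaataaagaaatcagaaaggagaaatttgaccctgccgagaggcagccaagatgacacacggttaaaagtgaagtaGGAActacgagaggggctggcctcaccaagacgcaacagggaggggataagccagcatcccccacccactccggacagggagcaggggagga
Adgrl4: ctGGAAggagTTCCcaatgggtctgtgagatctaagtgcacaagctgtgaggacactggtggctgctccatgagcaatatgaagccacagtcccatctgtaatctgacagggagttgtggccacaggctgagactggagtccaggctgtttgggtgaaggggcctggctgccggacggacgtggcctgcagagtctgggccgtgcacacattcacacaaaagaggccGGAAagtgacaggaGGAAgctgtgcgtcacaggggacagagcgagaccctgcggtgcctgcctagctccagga
P2ry14: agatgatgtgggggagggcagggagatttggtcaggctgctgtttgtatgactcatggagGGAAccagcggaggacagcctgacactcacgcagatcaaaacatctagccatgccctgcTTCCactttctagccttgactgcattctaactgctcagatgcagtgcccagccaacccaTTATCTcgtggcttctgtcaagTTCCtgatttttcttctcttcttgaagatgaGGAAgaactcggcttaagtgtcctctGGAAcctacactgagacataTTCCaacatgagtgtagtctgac
The Cd34 promoter held 5 GGAA matches, that of Adgrl4 4 and that of P2ry14 6, with 1 AGATAA match in P2ry14 and no CAGCTG in any of them. The table gives 4 start sites for P2ry14, of which the first is shown; the windows of the others held 4, 5 and 7 GGAA matches and 1, 0 and 1 AGATAA matches. No base belonged to more than 1 match. GGAA occurred in 96.0% of the 32851 promoters of that table, AGATAA in 11.2% and CAGCTG in 16.3%, so a GGAA match is shared with nearly every promoter.

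Adgrl4, an adhesion receptor best known from endothelium, had 1473 UMIs (32.0 CPM) in the homozygous, 5998 UMIs (82.3 CPM) in the heterozygous and 8226 UMIs (123 CPM) in the wild-type library. The 3 levels stood apart, with the homozygous one lowest (log2 ratio to wild type −1.94, interval −2.02 to −1.86) and the heterozygous one between (−0.57, interval −0.62 to −0.53). P2ry14, a receptor for UDP-sugars, had 938 UMIs (20.4 CPM) in the homozygous, 1961 UMIs (26.9 CPM) in the heterozygous and 6101 UMIs (90.9 CPM) in the wild-type library. Both knockout libraries were low (log2 ratios −2.16 and −1.76). P2ry14 lies at chr3:59113855-59153618 inside Med12l, which is transcribed from the opposite strand and had 4913 UMIs over the 3 libraries. Endothelial markers were scarce: of 7 listed, only Egfl7 reached 60 UMIs, and the 7 summed to 2.15 CPM in the homozygous, 2.94 CPM in the heterozygous and 2.76 CPM in the wild-type library.

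Procr, the protein C receptor used to sort the most primitive mouse stem cells, was near the limit of detection. It had 18 UMIs in 15 homozygous cells, 23 UMIs in 21 heterozygous cells and 66 UMIs in 57 wild-type cells, which is 0.391, 0.316 and 0.983 CPM. The log2 ratios to wild type were −1.33 (interval −2.17 to −0.56) for the homozygous and −1.64 (−2.39 to −0.93) for the heterozygous library. Ly6a, the gene of the Sca-1 surface protein and one that interferon induces, behaved differently: 11.9 CPM in the homozygous, 15.2 CPM in the heterozygous and 12.6 CPM in the wild-type library. The homozygous and wild-type levels of Ly6a did not differ beyond counting error (log2 ratio −0.09, interval −0.25 to 0.07). In the same comparison 20 of 33 measured interferon response genes were at least 2-fold higher in the homozygous library, beside 3.32% of all genes. The median log2 ratio of the 33 was 1.18, and Ifit3 led them at 22.6 CPM against 1.41 CPM in wild type. In the heterozygous library 3 of those 33 were at least 2-fold higher and 1 lower, beside 4.82% and 5.37% of all genes.

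Angpt1, the secreted ligand of the Tie2 receptor, had 1264 UMIs (27.4 CPM) in the homozygous, 3895 UMIs (53.4 CPM) in the heterozygous and 7212 UMIs (107 CPM) in the wild-type library. The log2 ratios to wild type were −1.97 (interval −2.06 to −1.88) and −1.01 (−1.06 to −0.95), so the heterozygous value sat almost on the 2-fold line. With size factors by the median-of-ratios method it was −0.86, and 3 rather than 4 members were then at least 2-fold lower in the heterozygous library. The share of all genes past 2-fold was not computed with those size factors.

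Of the 4 transcription factors, 2 were widespread and 2 were rare. Fli1, an ETS factor of blood and endothelium, reached 296, 327 and 309.8 CPM in the homozygous, heterozygous and wild-type libraries and was seen in 74.8%, 76.1% and 81.7% of their cells. Erg, its close relative, had 41.7 CPM in the homozygous, 63.2 CPM in the heterozygous and 48.7 CPM in the wild-type library, and was seen in 27.2%, 35.6% and 34.8% of cells. Hlf had 30, 66 and 68 UMIs in 18 homozygous, 32 heterozygous and 28 wild-type cells, or 0.651, 0.906 and 1.01 CPM. Its RNA was concentrated: 4 homozygous, 6 heterozygous and 5 wild-type cells held at least 1 in every 2 of its UMIs, and 1 wild-type cell held 14. Tal1, a basic helix-loop-helix factor also used by megakaryocytes and red-cell precursors, was not detected in the 4318 homozygous cells, which allows a share of up to 0.0695%. It had 23 UMIs in 9 heterozygous cells and 4 UMIs in 4 wild-type cells. Of the 23 heterozygous UMIs, 19 lay in 5 cells of a megakaryocyte-like cluster that held 9 heterozygous cells.

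Cells with a Cd34 UMI, called Cd34-positive here, numbered 212 in the homozygous, 454 in the heterozygous and 910 in the wild-type library. They had more Angpt1, Adgrl4, Procr and Hlf RNA, in CPM, than the cells without one, in every library. Inside cluster 4 alone, the cluster with the most Cd34 RNA described further on, this did not hold for Angpt1 in any library (log2 ratios −0.17, −0.62 and −0.31 in the homozygous, heterozygous and wild-type libraries). There it did not hold for Adgrl4 in the heterozygous (−0.37) and wild-type (−0.39) libraries. Procr and Hlf stood at −0.10 each in the heterozygous part of cluster 4, from 2 Procr and 36 Hlf UMIs. No direction can be read from 2 UMIs. Over all cells Ly6a, P2ry14, Erg and Fli1 stayed under 2-fold higher in each. At least 2-fold higher were 4 of the 8 other members with enough UMIs in the homozygous library, where 4.49% of all genes were. In the heterozygous library it was also 4 of 8, beside 6.56% of all genes, and in the wild-type library 3 of 8, beside 1.66%. At least 2-fold lower was 1 member, Ly6a, in the homozygous library (9.6% of all genes), none in the heterozygous (9.83%) and none in the wild-type library (8.45%). Cd34-positive cells were deeper, with medians of 15819, 12295 and 14065 UMIs in the homozygous, heterozygous and wild-type libraries, against 8744, 7452 and 9279 in cells without Cd34. In addition, 50.5%, 63.9% and 57.7% of the Cd34-positive cells of those libraries rested on a single Cd34 UMI.

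Angpt1 showed the widest gap among the abundant members. In the homozygous library it had 135 CPM in Cd34-positive and 17.7 CPM in Cd34-negative cells, a log2 ratio of 2.93 (interval 2.76 to 3.09). The heterozygous library gave 152 against 43.8 CPM (1.79, interval 1.69 to 1.90) and the wild-type library 186 against 84.4 CPM (1.14, interval 1.07 to 1.21). The ratio was thus widest in the homozygous library, where the level in Cd34-negative cells was lowest. Adgrl4 followed the same order, with log2 ratios of 2.34, 1.16 and 0.80 in the homozygous, heterozygous and wild-type libraries, the last of them under 2-fold. Its levels were 121 against 23.9 CPM, 166 against 74.1 CPM and 183 against 105 CPM in those libraries. P2ry14 differed less between Cd34-positive and Cd34-negative cells, at log2 ratios of 0.44 in the homozygous, 0.23 in the heterozygous and 0.79 in the wild-type library. Erg did so too (0.42, 0.09 and 0.35), and Fli1 was lower in Cd34-positive cells of all 3 (−0.51, −0.41 and −0.32).

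Procr gave log2 ratios of 3.15 in the homozygous, 2.97 in the heterozygous and 1.77 in the wild-type library, from 8, 10 and 33 UMIs in Cd34-positive cells. Among the cells with a Procr UMI, 7 of 15 homozygous, 10 of 21 heterozygous and 26 of 57 wild-type cells also had Cd34, a share of 46.7%, 47.6% and 45.6%. Those shares lay close together, while Cd34-positive cells were 4.91%, 5.71% and 16.2% of the 3 libraries. With only 15, 21 and 57 Procr cells the shares are loosely fixed, and their closeness was not tested. Hlf gave ratios of 2.69, 2.64 and 2.38, from 11 UMIs in 3 homozygous, 25 UMIs in 8 heterozygous and 41 UMIs in 10 wild-type Cd34-positive cells. Even in Cd34-positive cells Hlf was rare, seen in 1.42% of homozygous, 1.76% of heterozygous and 1.10% of wild-type ones, and Procr in 3.30%, 2.20% and 2.86%. Ly6a was seen in 4.72%, 8.37% and 5.71% of Cd34-positive cells, and in 4.82%, 4.87% and 5.30% of Cd34-negative cells. Its log2 ratios were −1.32 in the homozygous, 0.03 in the heterozygous and −0.72 in the wild-type library. Tal1 had no UMI in any Cd34-positive cell.

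**Figure D2:**
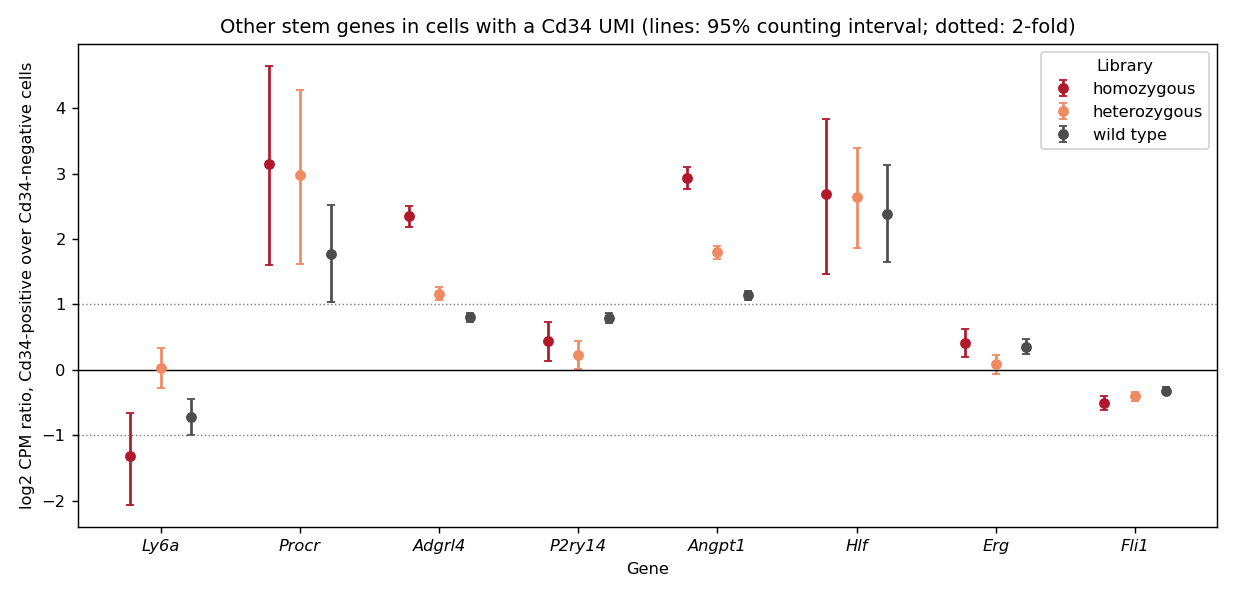
Points give the log2 ratio of CPM in Cd34-positive over Cd34-negative cells for 8 genes in each library, with 95% counting intervals; dotted lines mark 2-fold. Procr, Hlf and Angpt1 lie above 2-fold in all 3 libraries, Angpt1 at 2.93, 1.79 and 1.14 in the homozygous, heterozygous and wild-type libraries, while Fli1 lies below 0 in all 3.

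Co-detection in single cells gave a mixed count. At least 2 of the other 9 members were seen in 75.0% of Cd34-positive homozygous cells (interval 68.6 to 80.7), 77.3% of heterozygous ones (73.2 to 81.1) and 84.9% of wild-type ones (82.5 to 87.2). In Cd34-negative cells the shares were 36.2%, 49.4% and 59.7%. Part of this count came from the widespread ETS factors: without Erg and Fli1 the shares were 31.1% of Cd34-positive and 4.16% of Cd34-negative homozygous cells, 38.3% and 11.0% of heterozygous cells, and 57.5% and 25.5% of wild-type cells. With every cell thinned to 1000 UMIs, and Cd34 status kept from the full depth, the shares with at least 2 were 6.60% against 3.56%, 14.3% against 6.11% and 17.0% against 10.1%. The Cd34-positive cells were on the higher side in each of the 3 libraries under all 3 counts. No Cd34-positive cell showed more than 6 of the other 9.

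Angpt1, Adgrl4 and P2ry14 were all present in 6.60% of Cd34-positive homozygous cells, 6.83% of heterozygous and 23.0% of wild-type ones, against 0.511%, 0.973% and 6.67% of Cd34-negative cells. With every cell thinned to 1000 UMIs the homozygous library had all 3 in 0.943% of Cd34-positive and 0.0258% of Cd34-negative cells. The same pair of shares was 0.441% and 0.0276% for heterozygous cells, and 0.440% and 0.260% for wild-type cells. Thinned Cd34-positive and Cd34-negative cells numbered 212 and 3875 in the homozygous, 454 and 7245 in the heterozygous, and 910 and 4619 in the wild-type library. Each thinned share thus rests on very few cells, and no size of the contrast can be read from them. Hlf, Procr and Ly6a were together in 0 of the 212, 454 and 910 Cd34-positive cells, which allows shares of up to 1.42%, 0.661% and 0.330% in the homozygous, heterozygous and wild-type libraries. No Cd34-negative cell held the trio either. Hlf with Procr was seen in 1 Cd34-positive cell, a wild-type one. Since each of the trio was rare on its own, its absence from these cells says little. None of the trio was seen in 91.0%, 88.1% and 90.9% of the Cd34-positive cells of the 3 libraries. At about 1 to 3 UMIs of such a gene in a cell that carries it, a missing UMI does not show that the RNA was absent.

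**Figure D3:**
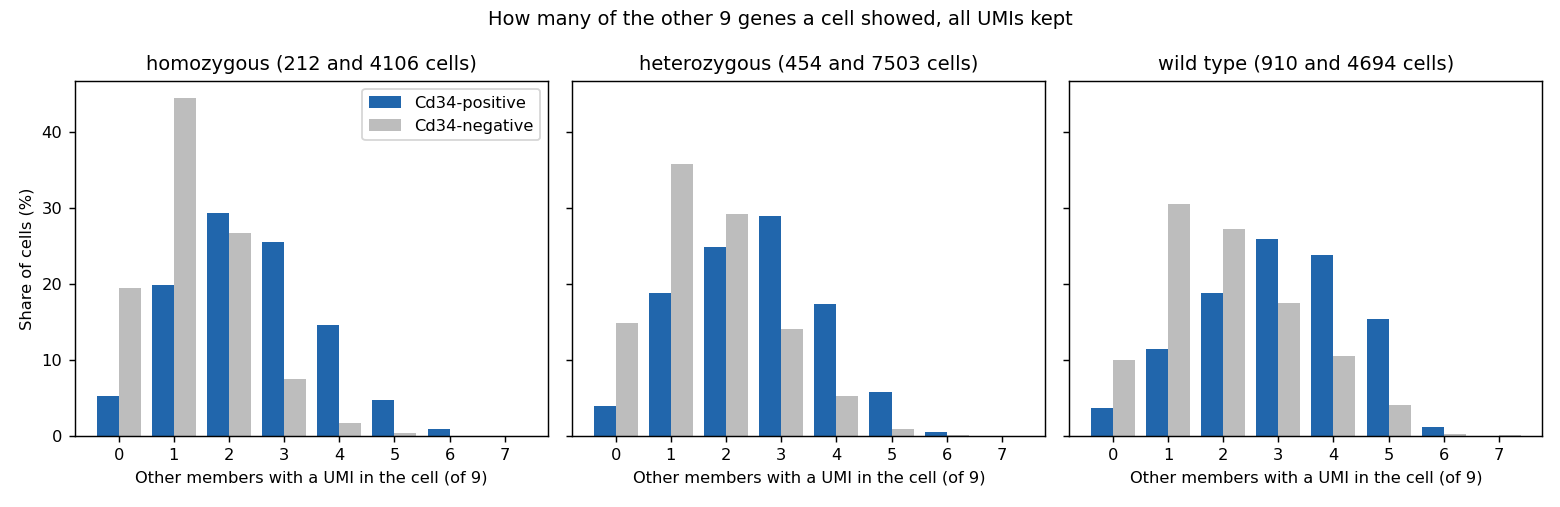
Bars give the share of Cd34-positive (blue) and Cd34-negative (grey) cells in which 0 to 7 of the other 9 genes had a UMI, in the homozygous, heterozygous and wild-type libraries at full depth. The medians were 2, 3 and 3 other genes in Cd34-positive cells against 1, 1 and 2 in Cd34-negative cells, and the 2 kinds of cell overlapped widely.

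Other stem genes were higher as well as lower in Cd34-positive cells. Of 36 stem genes listed beside the members, 25 were measured; 6 were at least 2-fold higher and 4 lower in Cd34-positive cells of the homozygous library (median log2 ratio −0.33, all genes −0.01), beside 4.49% and 9.6% of all genes. The counts were 2 higher and 5 lower in the heterozygous library (median −0.10, all genes 0.11), beside 6.56% and 9.83%. In the wild-type library 2 were higher and 3 lower (median −0.09, all genes 0.01), beside 1.66% and 8.45%. Gata2, a zinc-finger factor of stem cells, progenitors and mast cells, was the one higher in every library. It had 24.4 against 1.89 CPM in Cd34-positive and Cd34-negative homozygous cells, 18.4 against 2.88 CPM in heterozygous cells and 33.9 against 9.49 CPM in wild-type cells. Mecom and Meis1, regulators of stem cells and of many leukaemias, were abundant on both sides: Meis1 had 506 against 695 CPM in the homozygous, 685 against 723 CPM in the heterozygous and 1077 against 1085 CPM in the wild-type library. Mecom had 381 against 568, 642 against 701 and 893 against 822 CPM. Kit, the stem cell factor receptor, was also close on both sides, at 25.5 against 22.2, 27.0 against 21.9 and 34.4 against 27.2 CPM. Of the partner factors of Tal1, Erg and Fli1 (Lyl1, Lmo2, Gata2, Runx1 and others on a list of 7), Gata2 alone passed 2-fold in any library.

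Single genes of the progenitor and eosinophil lists were higher in Cd34-positive cells of every library. Of 12 multipotent progenitor genes listed, 10 were measured. In the homozygous library 2 were at least 2-fold higher and 1 lower (median log2 ratio 0.04), beside 4.49% and 9.6% of all genes. The heterozygous library gave 2 and 0 (median 0.40), beside 6.56% and 9.83%. The wild-type library gave 1 and 1 (median 0.29), beside 1.66% and 8.45%. Sox4 had the highest ratio of the 10 in each. Sox4, a factor of early progenitors, had 115 CPM in Cd34-positive against 15.9 CPM in the homozygous, 96.0 against 29.2 CPM in the heterozygous and 129 against 53.8 CPM in the wild-type library. Prg3, an eosinophil granule protein, had 47.3 against 3.69 CPM, 53.9 against 5.33 CPM and 70.2 against 18.0 CPM. Prg3 and Siglecf were 2 of the 4 eosinophil markers measured of 10 listed, and both were at least 2-fold higher in each library, while Ear2 was lower in each. Of 7 mature neutrophil markers, 6 were at least 2-fold lower in Cd34-positive cells of each library. Of all genes 9.6% were so in the homozygous, 9.83% in the heterozygous and 8.45% in the wild-type library. By the smallest ratio over the 3 libraries, the 10 genes that went most strongly with Cd34 were Tmem178, Tespa1, Prg3, Adgrg1, Gata2, Aff3, Abcb1b, Pdgfrb, Cav1 and Ly6k. Tmem178 was first, at 24.4 against 3.78 CPM in the homozygous, 19.8 against 1.66 CPM in the heterozygous and 11.1 against 2.21 CPM in the wild-type library. Adgrg1, an adhesion receptor also known as GPR56 and found on stem cells, had 13.7 against 1.25, 7.83 against 1.49 and 9.61 against 2.56 CPM. The 5 that went most strongly against Cd34 were Jchain, Setbp1, Ccl5, Gramd3 and Skap1. Cpa3, a mast-cell protease, stood out by library: 39.2 against 0.426 CPM in Cd34-positive and Cd34-negative homozygous cells, 7.37 against 0.618 CPM in heterozygous cells and 0.0658 against 0.135 CPM in wild-type cells. It was 1 of 4 mast and basophil markers measured of 6 listed. Of the 4, 1 was at least 2-fold higher and 0 lower in the homozygous library (4.49% and 9.6% of all genes). The heterozygous library gave 1 and 1 (6.56% and 9.83%), and the wild-type library 0 and 2 (1.66% and 8.45%). Hdc was the lowest of the 4 in each, at log2 ratios of −0.75, −1.82 and −1.27 in the homozygous, heterozygous and wild-type libraries.

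The cells were then grouped into 17 clusters without use of the 10 genes. Among the 16 clusters of at least 50 cells, Cd34, Adgrl4, P2ry14 and Angpt1 had their highest pooled level in cluster 4. Their second highest was in cluster 3. The megakaryocyte-like cluster 6, with 12 cells, was left out of this order. It had 301 CPM of Angpt1 (223 to 399), 129 CPM of P2ry14 (80.0 to 197) and 2 Procr UMIs (12.3 CPM). Cluster 4 is led by Prg3, Cpa3, Angpt1, Sox4, Prg2 and Aff3 and is given no cell type name, because its 10 leading genes hold 2 of the eosinophil marker list (Prg3 and Prg2) and 1 of the stem and progenitor marker list (Sox4). Cpa3 was scarce in the wild-type library as a whole, at 0.119 CPM, against 3.62 CPM in the homozygous and 1.22 CPM in the heterozygous one. Cluster 3 is led by Nrip1, Kcng2, Fras1, Itga1 and Gpr183 and is unnamed as well. Cd34 reached 54.8 CPM in cluster 4 (51.4 to 58.3) and 47.3 CPM in cluster 3 (44.2 to 50.6), against a median of 2.72 CPM over 16 clusters of at least 50 cells. Angpt1 had 294 CPM in cluster 4 and 135 CPM in cluster 3, Adgrl4 275 and 136 CPM, and P2ry14 149 and 73.3 CPM. For each of the 4 genes the intervals of the 2 clusters, pooled over libraries, did not overlap, and 926 of the 1310 cells of cluster 4 were wild type. The order was not the same in each library. In the homozygous library P2ry14 had 63.1 CPM in cluster 1 (43.7 to 88.2) and 57.8 CPM in cluster 4 (48.0 to 68.9), which overlapped, and Adgrl4 (132 CPM) and Angpt1 (72.4 CPM) were second highest in cluster 1. In the wild-type library P2ry14 (113 CPM) and Angpt1 (145 CPM) were second highest in cluster 5, and Cd34 was level between clusters 4 and 3 (52.4 and 52.2 CPM). Ly6a peaked elsewhere, at 228 CPM in cluster 1, which is led by immunoglobulin and MHC class II genes and is unnamed. Among the same 16 clusters, Procr was highest in cluster 3 at 2.27 CPM and Hlf in cluster 4 at 5.48 CPM (4.45 to 6.69). Each overlapped the next, the T and natural killer-like cluster 16, which held only 1 Procr and 3 Hlf UMIs. Cluster 4 held 97 Hlf UMIs, 59.1% of the total, and the third highest Hlf level was 0.883 CPM in cluster 13 (0.494 to 1.46). Erg and Fli1 were broad, their highest cluster lying at 1.49 and 1.72 times their median cluster.

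**Figure D4:**
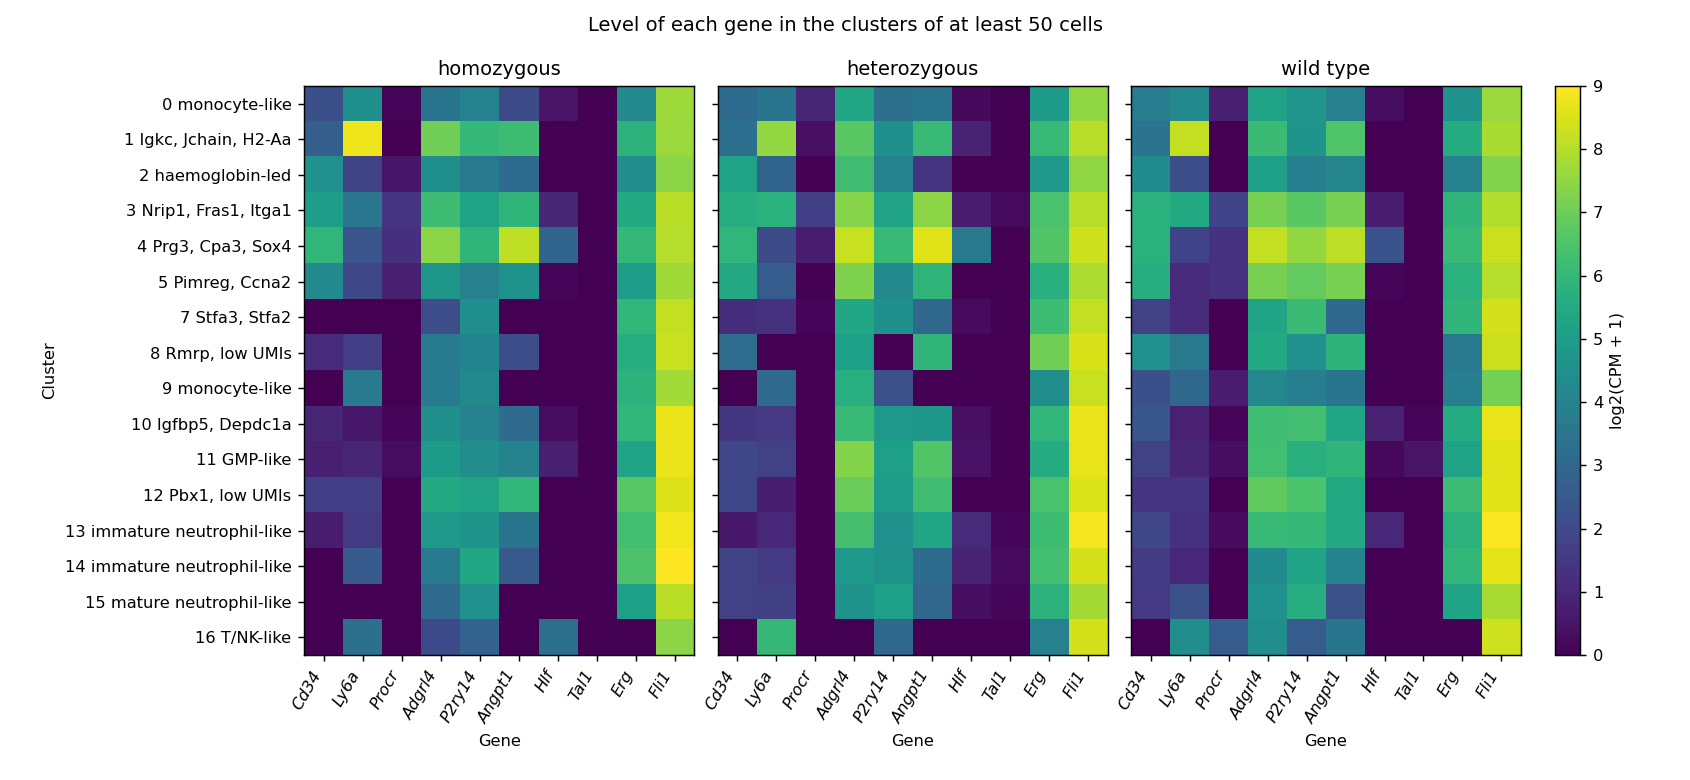
Colour gives log2(CPM + 1) of each of the 10 genes (columns) in the 16 clusters of at least 50 cells (rows) of the homozygous, heterozygous and wild-type libraries. Cd34, Adgrl4, P2ry14 and Angpt1 are bright in cluster 4 of each library, Ly6a is brightest in cluster 1 (led by Igkc, Jchain and H2-Aa), and Fli1 is bright throughout.

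Cluster 4 held 3.20% of homozygous cells (138), 3.09% of heterozygous cells (246) and 16.5% of wild-type cells (926). Within it Cd34 did not follow the library-wide difference: 60.1 CPM in the homozygous, 60.4 CPM in the heterozygous and 52.4 CPM in the wild-type library, with log2 ratios to wild type of 0.20 (interval −0.09 to 0.47) and 0.20 (−0.04 to 0.44). The share of cluster 4 cells with a Cd34 UMI was 35.5%, 41.5% and 36.0%. Angpt1 was also level between homozygous and wild type there (280 and 272 CPM, log2 ratio 0.039, interval −0.09 to 0.16) and higher in the heterozygous library (389 CPM, 0.52, interval 0.42 to 0.61). Hlf had 6.52 CPM in the homozygous, 11.5 CPM in the heterozygous and 3.78 CPM in the wild-type part of cluster 4, from 14, 36 and 47 UMIs. Outside cluster 4 the picture for Cd34 was not uniform. In cluster 3 it had 32.4 CPM in the homozygous, 47.3 CPM in the heterozygous and 52.2 CPM in the wild-type library. In the dividing cluster 5 it had 18.5, 42.6 and 47.9 CPM, so there the heterozygous level overlapped wild type and the homozygous one did not. Of the Cd34-positive cells, 23.1% of homozygous, 22.5% of heterozygous and 36.6% of wild-type ones lay in cluster 4, and 24.1%, 31.9% and 32.0% in cluster 3.

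P2ry14 was lower in both knockout libraries inside most of the clusters as well. In cluster 4 it had 57.8 CPM in the homozygous, 67.4 CPM in the heterozygous and 185 CPM in the wild-type library. Cluster 3 gave 36.1, 36.9 and 104 CPM. P2ry14 was lower than wild type in 9 of the 9 clusters with at least 60 UMIs in the homozygous comparison, 8 of them by 2-fold or more (log2 ratios −2.98 to −0.78, median −1.52), and in 13 of 13 in the heterozygous comparison, 9 of them by 2-fold or more (median −1.46). Cluster 1, with 54 P2ry14 UMIs, was below that minimum in the homozygous comparison and went the other way, at 63.1 CPM in the homozygous and 24.2 CPM in the wild-type library (log2 ratio 1.38, interval 0.55 to 2.26). Adgrl4 was lower in 10 of 11 such clusters of the homozygous library (median −1.33) but higher in 13 of 14 of the heterozygous library (median 0.20). Angpt1 was lower in 7 of 9 clusters of the homozygous (median −1.90) and in 6 of 10 of the heterozygous library (median −0.09). Clusters of 1 library share its depth and its free RNA and are not replicates.

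**Figure D5:**
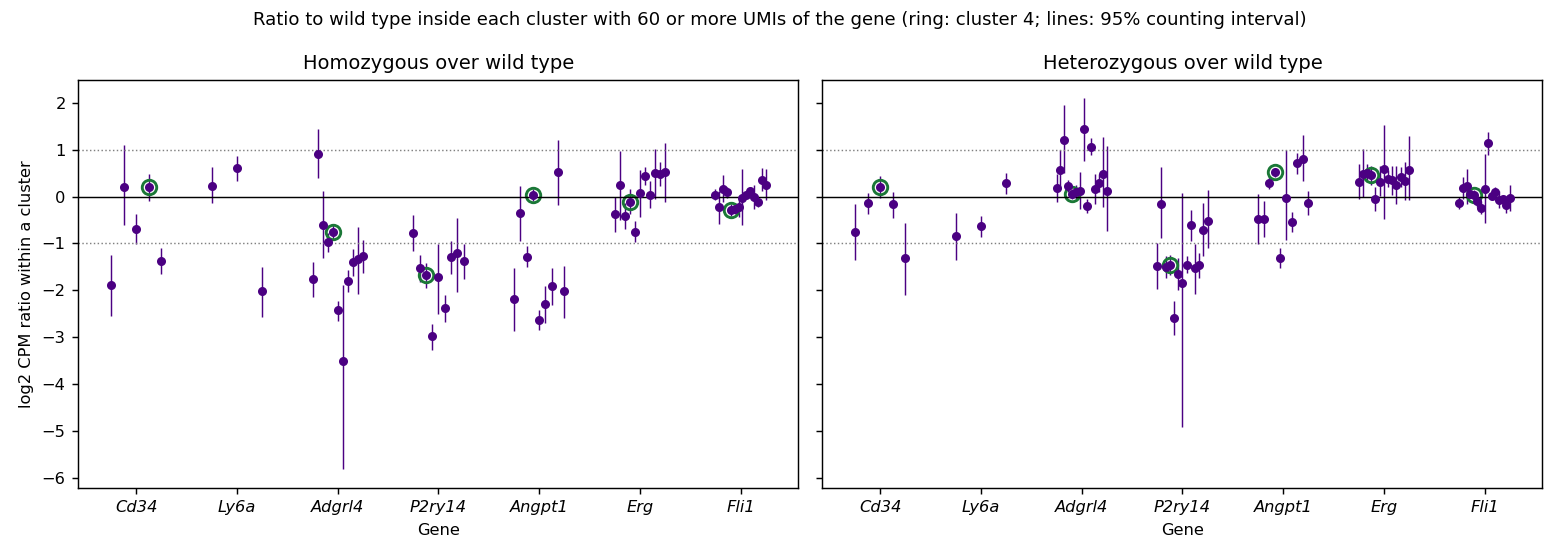
Points give the log2 ratio of CPM to wild type inside each cluster with at least 60 UMIs of the gene over both libraries and UMIs in each, for homozygous (left) and heterozygous (right), with 95% counting intervals; rings mark cluster 4 and dotted lines 2-fold. The P2ry14 points lie below 0 in both panels, and the Cd34 ring lies at 0.20 in both.

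Weighting the clusters of each knockout library by their wild-type shares brought the whole-library ratios of Cd34, Angpt1 and Adgrl4 nearer to 0, and that of P2ry14 by a smaller step. The log2 ratio of homozygous to wild type then was −0.43 for Cd34, −0.63 for Angpt1, −1.09 for Adgrl4 and −1.71 for P2ry14. For heterozygous over wild type it was −0.04 for Cd34, 0.21 for Angpt1, 0.21 for Adgrl4 and −1.50 for P2ry14. Hlf turned to 0.56 and 1.25 in the 2 comparisons, from 30 homozygous, 66 heterozygous and 68 wild-type UMIs. The weighting covered 14 clusters in the homozygous and 15 in the heterozygous comparison, so its cells were not quite those of the whole libraries. Wild-type Cd34 was 27.7 CPM in the former and 25.9 CPM in the latter. This weighting and the values inside cluster 4 were added after the data had been seen.

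Sex-linked RNA moved with the same clusters. Cluster 4 held 12.7% of the homozygous cells with Y-linked RNA and no Xist, against 2.72% of the homozygous cells with Xist and no Y-linked RNA. In the heterozygous library the shares were 2.62% and 6.18%, and in the wild-type library 10.8% and 17.2%. Cd34 had 44.1 CPM in the first kind of cell and 7.84 CPM in the second in the homozygous library, 7.92 and 19.6 CPM in the heterozygous library, and 14.1 and 26.3 CPM in the wild-type library. The direction in the homozygous library was thus opposite to that in the heterozygous library; the wild-type intervals overlapped, with 9 Cd34 UMIs in the first kind. Among cells with Xist and no Y-linked RNA, the log2 ratios of homozygous to wild type were −1.75 for Cd34, −2.59 for Adgrl4, −2.37 for P2ry14 and −2.51 for Angpt1, each further from 0 than over all cells. For heterozygous over wild type they were −0.42 for Cd34, −0.06 for Angpt1 and −1.77 for P2ry14. The part of sex or of single mice in the library differences was not tested.

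Across 44 cluster-by-library profiles of at least 50 cells, which share libraries and depth, the gene closest to Cd34 among 10726 was Tespa1 (Pearson r 0.891, across profiles, as a description), then Nrg1 and H13. Adgrl4 was closest to Etv6 (0.879) and then Angpt1 (0.836). Angpt1 in turn was closest to Adgrl4. P2ry14 was closest to Ikzf2 (0.774) and then Meis1 (0.743), Ly6a to Sdc1 (0.904) and Cd209a, Erg to Dapk2 (0.821) and Fli1 to Lta4h (0.919). Among the members, Cd34 correlated with Procr at 0.684, Angpt1 at 0.642, Adgrl4 at 0.615, P2ry14 at 0.211 and Fli1 at −0.479.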

How the data were processed

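Mouse bone marrow was profiled in 3 libraries with a 10x Genomics Chromium 3' v3 kit, per the labels' protocols. The deposited values are raw UMI counts for every gene in every barcode, made with Cell Ranger 8.0.1 per the file headers. The submitters' processing notes name Cell Ranger, STAR and the build mm10; the annotation release and whether intronic reads were counted are not given in the sources used here. The gene IDs of 32012 of the 33696 genes were found in GENCODE M21 of GRCm38, which gives the positions. Groups follow the genotype stated for each sample, since the title letters do not spell it out. UMIs from the 3' end do not scale with gene length, yet capture differs between genes, so levels were compared between libraries or cells and not between genes.

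Cells had at least 500 UMIs, 200 genes and a mitochondrial share under 10%. UMIs were summed per library, cluster or class of cell and scaled to counts per 1000000 UMIs (CPM). Intervals are exact 95% ones: Poisson (Garwood) for levels, binomial (Clopper-Pearson) for shares, conditional for ratios. A ratio was called at 2-fold, over genes with at least 60 UMIs in the 3 libraries. A count of 0 was given the limit that 3 counts allow. With 1 library per genotype no test was run. Scrublet's automatic call marked under 0.05% of cells and was not used; the 280 homozygous, 682 heterozygous and 423 wild-type cells that a rule of 0.8% per 1000 barcodes would mark were kept, and left out in an alternative. Clusters used 2000 variable genes without the 10 members, Fabp4, sex-linked and antigen receptor genes, 30 principal components, 15 neighbours and Leiden resolution 1. They were named from the best of the marker lists when at least 3 of its markers were raised 2-fold over the other cells. No name was given when another list, or immunoglobulin genes, held more of the 10 leading genes. The same held for a shallow cluster without a marker of its best list among them. Other alternatives were cell filters, scalings, thinning and Leiden resolutions 0.5 and 2; those on sex-linked RNA, cluster make-up, Erg and Fli1, and the genotype ratios in and outside cluster 4, were added after the data had been seen.

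The members, gene lists and rules were chosen with earlier results of these data known. Genes other than members are named by rank: the 10 highest and 5 lowest by the weakest Cd34-positive ratio over libraries, the 3 most like each member across profiles, and examples from the lists. Clustering ran in scanpy 1.11.5 with python-igraph 0.11.9, and intervals came from scipy 1.17.1, under Python 3.11.15. The ratio scripts were tested on simulated data.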

Additional observations from a re-analysis of the deposited data

Results flagged for a closer look

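The homozygous to wild-type ratio of Ly6a and of P2ry14 pointed in opposite directions in different clusters, with counting intervals that excluded 0 on both sides. The difference between clusters was not tested. Ly6a was higher in the homozygous part of the dividing cluster 5 (log2 ratio 1.38, 24 against 9 UMIs, 2.86 against 1.10 CPM) and lower in the homozygous part of cluster 3 (−2.01, 34 against 424 UMIs, 10.7 against 43.0 CPM). P2ry14 was higher in the homozygous part of cluster 1, led by immunoglobulin and MHC class II genes (1.38, 34 against 20 UMIs, 63.1 against 24.2 CPM) and lower in that of cluster 5 (−2.98, 120 against 926 UMIs, 14.3 against 113 CPM). Of 14 clusters compared, P2ry14 was at least 2-fold lower in 9 and at least 2-fold higher in 1, each with an interval on 1 side of 0.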

How the results depend on the processing

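No paired analysis was possible because each genotype has 1 library. Of the 113 alternative values of the main counts and shares, 69 stayed within 1.5 times or within the counting interval; of the single ratios, 131 of 227 between genotypes and 101 of 166 between Cd34-positive and Cd34-negative cells did, while 21 and 20 changed sign, 7 of each from a ratio of at least 2-fold. The 5 members at least 2-fold apart between homozygous and wild-type cells became 1 inside cluster 4 alone (P2ry14) and 2 at the wild-type cluster make-up (P2ry14 and Adgrl4), all lower. In cluster 4, 10130 genes, 7 members among them, had enough UMIs for this comparison. Of these genes 2.28% were at least 2-fold lower and 1.92% higher in the homozygous library. The 4 of the heterozygous comparison became 2 in cells with Xist and no Y-linked RNA (P2ry14 lower at −1.77, Ly6a higher at 1.09) and 2 at that make-up (P2ry14 lower at −1.50, Hlf higher at 1.25). The share of all genes past 2-fold was not computed in those cells or at that make-up. These counts therefore have no background beside them. Inside cluster 4, Cd34 turned to 0.20 and Angpt1 to 0.039 for homozygous over wild type, and to 0.20 and 0.52 for heterozygous over wild type. At the wild-type make-up the heterozygous ratio turned to 0.21 for Angpt1 and −0.53 for Tal1, and Tal1 was −0.48 after thinning. The cluster make-up differs by construction in these; for the others the cause was not tested.

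The share of cells with a Cd34 UMI was 2.93% of homozygous, 4.53% of heterozygous and 10.3% of wild-type barcodes when every barcode was used, and 3.22%, 4.91% and 12.5% at a mitochondrial share under 25%. With at least 1000 UMIs and a share under 5% it was 6.30% in the homozygous and 18.2% in the wild-type library. Thinned to 1000 UMIs it was 0.759%, 0.792% and 2.13%, and among cells with Xist and no Y-linked RNA it was 4.04% in the homozygous and 9.67% in the heterozygous library.

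The share of Cd34-positive cells with at least 2 other members was 6.60%, 14.3% and 17.0% (homozygous, heterozygous, wild type) after thinning, 86.7%, 85.4% and 91.9% among cells with 2 or more Cd34 UMIs, and 31.1%, 38.3% and 57.5% without Erg and Fli1. It was 95.9%, 92.2% and 95.5% inside cluster 4, and 73.0% in the heterozygous and 78.9% in the wild-type library outside it. Inside cluster 4, 0 members were at least 2-fold higher in Cd34-positive cells of the heterozygous and 1 of the wild-type library. The share of all genes that were higher in this way inside cluster 4 was not computed. There Angpt1 turned to −0.17, −0.62 and −0.31 in the homozygous, heterozygous and wild-type libraries, Ly6a to 3.19 in the homozygous, and Procr to −0.10, Hlf to −0.10 and Adgrl4 to −0.37 in the heterozygous library. Cluster 4 held only 9 Ly6a UMIs in the homozygous library, and 2 Procr and 36 Hlf UMIs in the heterozygous one.

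The share of Cd34-positive cells in the cluster with the highest Cd34 level was 34.9%, 42.3% and 55.2% at resolution 0.5 and 8.96%, 3.74% and 6.37% at resolution 2. It was 32.1%, 30.1% and 40.5% without Scrublet doublets, and 29.7% in the heterozygous and 41.1% in the wild-type library under the stricter cell filter. The cluster so chosen had 1932 cells at resolution 0.5 and 259 at resolution 2, against 1310 in the main clustering. These shares therefore refer to groups of different size. Depth limits Procr, Hlf and Tal1 most, with at most 68 UMIs each in a library.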
